A study of Homo sapiens with 17 samples.

Results

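The 39 genes described here encode proteins that copy DNA or supply the deoxynucleotides for it, and they were followed in human IMR-90 fibroblasts made senescent with etoposide. They were chosen by symbol: 11 origin licensing genes, 8 origin firing genes, 7 polymerase and primase genes, 5 genes of the sliding clamp and its loader, 3 lagging-strand genes and 5 nucleotide supply genes. All 39 were among the 41040 named genes of the count tables, and all 39 were among the 16891 genes with enough counts to be tested.

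Replication starts at origins that are licensed in G1, when the origin recognition complex (ORC), CDC6 and CDT1 load the MCM2-7 helicase. In S phase the kinase CDC7 with DBF4, together with cyclin-dependent kinases, turns the loaded helicase into an active fork with CDC45 and GINS, and geminin (GMNN) blocks a further round of loading. Polymerase alpha with primase then starts each strand, polymerases epsilon and delta extend it, PCNA holds them on DNA, and ribonucleotide reductase makes the deoxynucleotides. Many of these genes are transcribed in late G1 and S phase under E2F factors, so their mRNA is low in cells that have left the cell cycle, as senescent fibroblasts have.

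IMR-90 is a fibroblast line from human fetal lung, bought by the submitters from a cell repository, and every group was grown in the same serum-containing medium. Week 0 was untreated cells (5 libraries, replicates 1, 3, 4, 5 and 6). The other cells received 20 µM etoposide, a topoisomerase II poison that breaks DNA, for 48 h, after which it was removed. They were harvested at week 1 (6 libraries, day 7 in the titles) and week 4 (6 libraries, day 28). The groups come from 1 line, untreated libraries were analysed at week 0 only, and so treatment and time in culture cannot be told apart. The labels do not say that replicates came from separate cultures, so a p-value sets a difference against a library-to-library spread that could be technical alone.

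Counts assigned to named genes ranged from 77.2 to 102.8 M per library, and the lowest count of any of the 39 genes in any library was 46. Levels are CPM, counts scaled to a common library total, on TMM-scaled library sizes. The marker sums in this paragraph are the exception, as CPM on totals over named genes without TMM factors. Those factors averaged 1.09 at week 0, 0.975 at week 1 and 0.954 at week 4, so the sums are not on the scale of the other levels. The 12 fibroblast markers were all tested, and their summed level was 40923 to 49124 CPM at week 0, 50854 to 53770 at week 1 and 70148 to 73317 at week 4. COL1A1 gave 37.7% to 40.6% of that sum. The 8 leukocyte markers summed to at most 1.26 CPM in any library, with CD3E at 0 at weeks 0 and 4, and the 8 endothelial markers summed to 86.2 to 106.7, 60.0 to 64.0 and 62.1 to 83.9 CPM, mostly TEK. The 8 epithelial markers summed to 69.8 to 76.7, 238 to 278 and 199 to 217 CPM in the 3 groups. KRT18 gave 68.3% to 72.8% of that sum, and KRT5 and SFTPC were at 0 at week 0. Smooth muscle and pericyte markers summed to 1485 to 1697, 1379 to 1474 and 1264 to 1403 CPM, with 42.3% to 49.9% from ACTG2. Single markers moved in both directions. At week 1 against week 0, edgeR called 5 of 8 smooth muscle markers higher and 2 lower, and 5 of 12 fibroblast markers higher and 6 lower. Of 5 tested endothelial markers 2 were higher and 3 lower, and of 6 tested epithelial markers 4 were higher and 1 lower. Over all tested genes 32.9% were higher and 34.0% lower. The part of these shifts in the results was not tested. Week 0 replicates 1 and 4 stood apart from the other libraries in that ribosomal protein genes took 5.95% and 5.18% of their counts, against 3.17% to 3.93% elsewhere, and the genes and ratios that these libraries moved most are also given without them.

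Promoter sequence is shown first because E2F sites are the element best known in these genes. RefSeq promoters (GRCh38.p14, 250 bases before to 50 after each start) were matched by symbol for 34 of the 39 genes, without MCM4, MCM5, GINS4, POLD3 and DNA2. An E2F-type word (TTCCCGC or TTGGCGC or TTCGCGC or TTGCCGC, on either strand, overlapping matches counted) was found in 24 of the 34 (70.6%), in 13.1% of all 27305 promoters in the table and in 19.5% of the 12457 promoters of tested genes. At least 2 such words were found in 11 of the 34 (32.4%) and in 1.81% of all promoters and 2.89% of those of tested genes. The CHR word TTTGAA, on either strand, was in 2 of the 34 (5.88%) against 15.4% of all promoters and 10.3% of those of tested genes, and CCAAT, on either strand, was in 17 (50.0%) against 35.7% and 35.9%. A match is a description of the letters and not a measured binding site. The stretches below are all 5′ to 3′ on the gene's own strand and upstream of the start. They come from licensing genes (ORC1, CDT1 and MCM6), the clamp (PCNA) and nucleotide supply genes (TYMS and RRM2), and the other roles are not shown. Capitals mark E2F-type words, except in RRM2, which had none in its 300 bases and where capitals mark CCAAT.
ORC1 (chr1:52404424-52404483, minus strand): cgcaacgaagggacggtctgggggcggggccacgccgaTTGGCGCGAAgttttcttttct
CDT1 (chr16:88803729-88803788, plus strand): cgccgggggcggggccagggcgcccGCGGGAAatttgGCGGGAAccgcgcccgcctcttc
MCM6 (chr2:135876509-135876608, minus strand): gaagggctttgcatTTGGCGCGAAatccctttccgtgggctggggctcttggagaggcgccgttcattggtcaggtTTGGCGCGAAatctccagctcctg
PCNA (chr20:5126653-5126712, minus strand): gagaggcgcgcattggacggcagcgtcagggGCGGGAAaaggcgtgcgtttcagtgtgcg
TYMS (chr18:657583-657642, plus strand): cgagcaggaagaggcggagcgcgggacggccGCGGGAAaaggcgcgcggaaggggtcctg
RRM2 (chr2:10122599-10122688, plus strand): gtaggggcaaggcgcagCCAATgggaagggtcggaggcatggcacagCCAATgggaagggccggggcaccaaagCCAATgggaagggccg
The capital run of 10 letters in ORC1, and each of those in MCM6, is a pair of overlapping words, 1 on each strand. In CDT1 the 2 separate words lie 35 and 23 bases before the start, in PCNA the word lies 59 bases before it and in TYMS 39 bases before it.

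In the first week after etoposide all 39 genes fell. The summed level of the 39 genes was 2724 to 2959 CPM at week 0 and 536 to 576 CPM at week 1, and no library of week 1 reached the lowest of week 0 in any of the 39. By edgeR's quasi-likelihood test with Benjamini-Hochberg adjustment over all 16891 genes, 39 of 39 were called lower (adjusted p under 0.05, at most 1.2e-10), where 34.0% of all tested genes were called lower, and 39 of 39 were called lower without overlap, where 23.9% of all tested genes were. Falls ran from 2.72-fold (POLA2) to 12.6-fold (PRIM1), with 28 genes over 4-fold and 9 over 8-fold. The median log2 fold change was -2.50 over the 39 genes and -0.02 over all tested genes. In bulk RNA, fewer cells in the cell cycle and less of each mRNA per cell cannot be told apart. Without week 0 replicates 1 and 4 the median was -2.35 and 39 of 39 were still called lower.

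**Figure D1:**
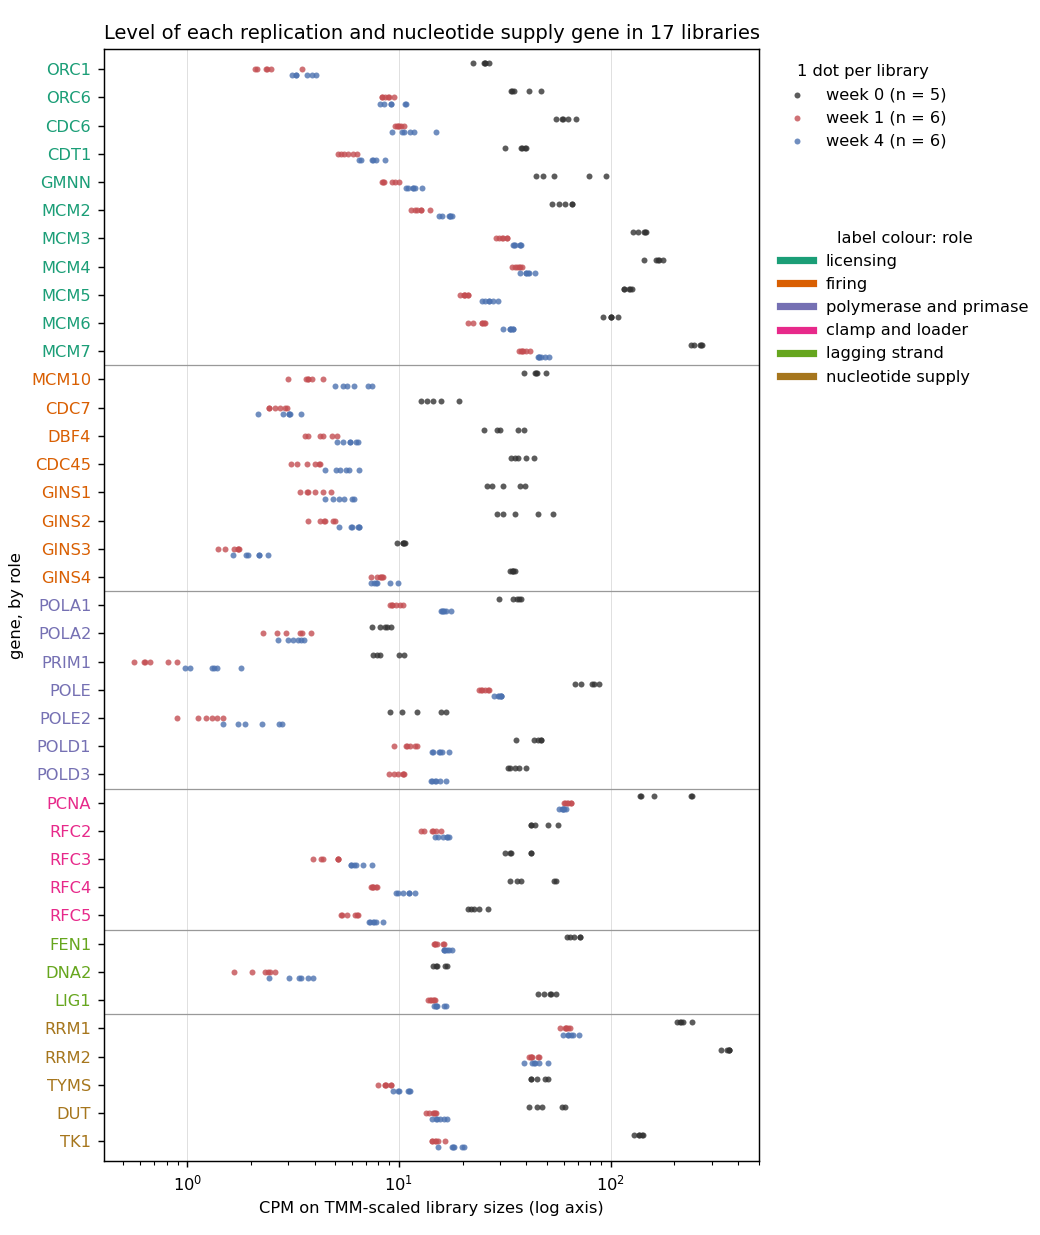
Level of each of the 39 genes in each library, in CPM on a log axis, with 1 dot per library and genes ordered by role. In every row the week 0 dots lie to the right of all week 1 and week 4 dots. The week 1 and week 4 dots lie close together, and in 20 rows they do not overlap.

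Among the 11 licensing genes the median log2 fold change at week 1 was -2.56. ORC1, the ORC subunit whose protein rises and falls with the cell cycle, stood at 22.5, 25.4, 25.3, 26.6 and 25.5 CPM in week 0 replicates 1, 3, 4, 5 and 6. At week 1 its level was 2.09 to 3.50 CPM (median 2.36), and at week 4 it was 3.13 to 4.07 CPM (median 3.47). The untreated libraries were thus all far above the others, and the later groups overlapped. Its log2 fold change at week 1 was -3.33 ± 0.11 (SE, edgeR adjusted p = 3.1e-17), the largest fall of the licensing genes. ORC6, another ORC subunit, fell less, at -2.12 ± 0.09.

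CDC6, the ATPase that recruits the helicase to ORC, went from 55.5 to 68.5 CPM at week 0 to 9.57 to 10.6 CPM at week 1, a log2 fold change of -2.61 ± 0.09. CDT1, which brings the helicase to origins, stood at 38.1, 39.8, 31.6, 39.5 and 37.8 CPM at week 0. At week 1 it was 5.17 to 6.35 CPM (median 5.63) and at week 4 it was 6.48 to 8.63, without overlap between the 3 groups. Its inhibitor GMNN stood at 95.1, 53.8, 78.9, 48.2 and 44.4 CPM at week 0, highest in replicates 1 and 4. It was 8.30 to 10.1 CPM at week 1 (median 8.91) and 10.8 to 12.8 at week 4 (median 11.6). The log2 fold change of GMNN at week 1 was -2.83 ± 0.15 over all libraries and -2.44 without week 0 replicates 1 and 4.

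The 6 subunits of the MCM2-7 helicase, which form 1 ring, fell by unequal amounts, from 4.18-fold for MCM6 to 6.65-fold for MCM7. MCM7 stood at 239, 267, 248, 269 and 264 CPM at week 0, at 36.8 to 41.5 CPM at week 1 (median 38.2) and at 45.3 to 51.0 at week 4 (median 46.4). MCM6 stood at 91.6 to 108 CPM, then at 21.2 to 25.5 (median 24.6) and 31.2 to 34.7 (median 33.8). For both, the 3 groups were fully separate, with week 4 between the others. Per kilobase of deposited gene length, MCM7 was the most abundant subunit at week 0 (51.9 ± 2.66 CPM per kb), above MCM3 (38.4 ± 2.21) without overlap. At week 1 MCM3 (7.86 to 8.89 CPM per kb) and MCM7 (7.41 to 8.37) overlapped. MCM2, at 12.3 CPM per kb, was the lowest subunit at week 0 and, at 2.55, also at week 1, where its highest library overlapped those of MCM5 (2.68 to 2.92).

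The 8 firing genes had the lowest median of any role at week 1, at a log2 fold change of -2.95. MCM10, which joins the fork as it is activated, stood at 39.2, 44.3, 49.8, 44.1 and 45.1 CPM at week 0. It was 2.99 to 4.37 CPM at week 1 (median 3.71) and 4.98 to 7.46 at week 4 (median 5.93), with no overlap between any groups. Its log2 fold change at week 1 was -3.58 ± 0.10 (edgeR adjusted p = 3.7e-18). CDC45, which joins the MCM ring and GINS to form the active helicase, fell from 37.8 ± 3.82 CPM (SD, n = 5) to 3.75 ± 0.47 CPM (n = 6), a log2 fold change of -3.33 ± 0.10. CDC7, the kinase that activates the helicase, fell by 2.50 on the log2 scale and its activating subunit DBF4 by 2.89.

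The 4 GINS subunits did not fall equally. GINS1 and GINS2 fell 8.07-fold and 8.72-fold, GINS3 6.34-fold and GINS4 4.27-fold. GINS2 stood at 53.5, 35.5, 45.4, 31.2 and 28.9 CPM at week 0 and at 3.71 to 4.98 at week 1 (median 4.47). GINS4 stood at 34.8, 34.5, 33.5, 34.0 and 35.4 CPM and then at 7.42 to 8.40 (median 8.17). The groups were separate for both genes, and the week 0 spread of GINS2 was the wider. Without week 0 replicates 1 and 4, the log2 fold change of GINS2 moved from -3.12 to -2.84.

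Polymerase and primase genes held both the largest and the smallest falls of the 39. PRIM1, the catalytic primase subunit, stood at 10.5, 8.13, 9.98, 7.89 and 7.54 CPM at week 0. At week 1 it was 0.56 to 0.90 CPM (median 0.65) and at week 4 it was 0.98 to 1.80 (median 1.33), so that the 3 groups were separate. Its log2 fold change at week 1 was -3.65 ± 0.15 (edgeR adjusted p = 2.6e-15). POLA2, the accessory subunit of polymerase alpha, which works in the same complex, changed from 8.43 ± 0.66 to 3.10 ± 0.58 CPM, a log2 fold change of -1.44 ± 0.11.

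The catalytic subunit of polymerase alpha, POLA1, stood at 29.6, 37.0, 34.4, 36.2 and 37.7 CPM at week 0. It was 9.10 to 10.4 CPM at week 1 (median 9.45) and 15.9 to 17.7 at week 4 (median 16.3). Week 4 lay above week 1 in every library and below every week 0 library. POLE, the catalytic subunit of the leading-strand polymerase epsilon, fell 3.12-fold from 78.8 ± 8.40 CPM (SD, n = 5) to 25.2 ± 1.13 CPM (n = 6). POLE2, a subunit of the same enzyme, fell 10.4-fold from 12.8 ± 3.37 to 1.24 ± 0.21 CPM, a log2 fold change of -3.37 that was -3.09 without week 0 replicates 1 and 4. The polymerase delta genes POLD1 and POLD3, its catalytic subunit and an accessory subunit, fell 3.95-fold and 3.57-fold.

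PCNA, the sliding clamp, had the highest level per kilobase of the 39 genes at week 0, at 131 CPM per kb. It stood at 241, 161, 239.9, 139.5 and 138 CPM in the 5 week 0 libraries, highest in replicates 1 and 4. It was 60.4 to 65.0 CPM at week 1 (median 62.7) and 57.1 to 61.5 at week 4 (median 59.6). Every treated library was below every untreated one, and the treated groups overlapped. The log2 fold change at week 1 was -1.55 ± 0.11 (edgeR adjusted p = 5.2e-11), and it was -1.22 without week 0 replicates 1 and 4. PCNA is also a known target of p53, which etoposide damage activates.

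The clamp is opened by the RFC loader, whose small subunits RFC2 to RFC5 fell 3.31-fold, 7.84-fold, 5.69-fold and 3.93-fold in that order. The log2 fold change of RFC4 was -2.51, and it was -2.24 without week 0 replicates 1 and 4. RFC3 stood at 42.1, 33.4, 42.3, 33.8 and 31.6 CPM at week 0 and at 3.94 to 5.16 at week 1 (median 4.76). On the lagging strand, the flap nuclease FEN1 fell 4.41-fold, the nuclease and helicase DNA2 6.90-fold and the ligase LIG1, which seals Okazaki fragments, 3.53-fold.

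**Figure D2:**
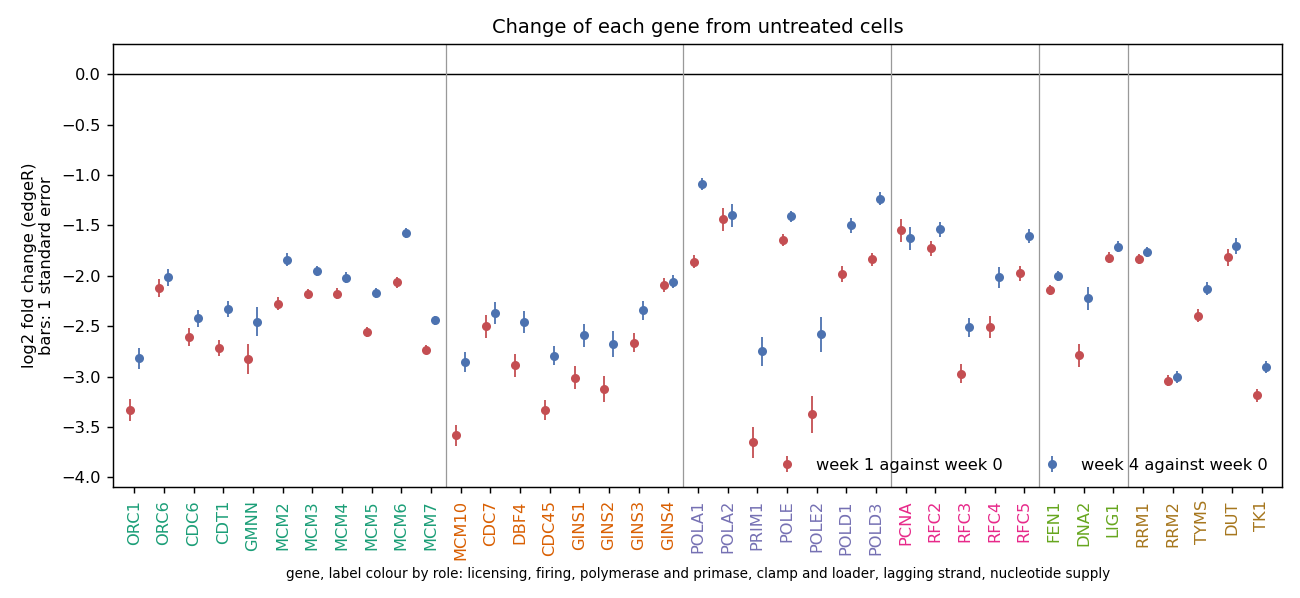
Log2 fold change from week 0 of each of the 39 genes at week 1 and week 4, with bars of 1 standard error from edgeR and genes ordered by role. All points lie below 0. PRIM1 is the lowest point at week 1 (-3.65) and RRM2 the lowest at week 4 (-3.01), and PCNA is the only gene whose week 4 point is below its week 1 point.

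Of the nucleotide supply genes, RRM2, the regulated small subunit of ribonucleotide reductase, stood at 332, 364, 363, 355 and 364 CPM at week 0. It was 41.3 to 46.1 CPM at week 1 (median 42.4) and 38.96 to 50.6 at week 4 (median 43.7). The treated groups overlapped and both were far below week 0. Its log2 fold change was -3.04 ± 0.06 at week 1 and -3.01 ± 0.06 at week 4 (edgeR adjusted p = 5.5e-21 and 1.2e-20). RRM1, the large subunit of the enzyme, stood at 205, 219, 243, 213 and 215 CPM, then at 57.5 to 64.0 (median 61.7) and 59.4 to 70.5 (median 63.9), a smaller fall of 3.57-fold at week 1.

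TK1, the S phase thymidine kinase of the salvage route, stood at 129, 143, 136, 140.4 and 136 CPM at week 0 and at 14.3 to 16.5 CPM at week 1 (median 14.9). Its 9.09-fold fall was the largest of the nucleotide supply genes. TYMS, which makes thymidylate from dUMP, fell 5.26-fold, and DUT, which breaks down dUTP, fell 3.52-fold.

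Beside these 5 genes, RRM2B, the p53-inducible small subunit that can replace RRM2 outside S phase, rose. It stood at 31.7, 27.8, 32.1, 26.1 and 26.6 CPM at week 0, at 79.0 to 99.5 CPM at week 1 and at 65.2 to 73.3 at week 4, with no overlap between the groups. Its log2 fold change was 1.66 ± 0.07 at week 1 (edgeR adjusted p = 8.3e-16) and -0.39 ± 0.06 from week 1 to week 4 (adjusted p = 1.7e-05). SAMHD1, which degrades deoxynucleotides, was 26.3 ± 2.66 CPM at week 0 and 27.4 ± 0.99 at week 1, with a log2 fold change of 0.06 ± 0.07 (adjusted p = 0.45).

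**Figure D3:**
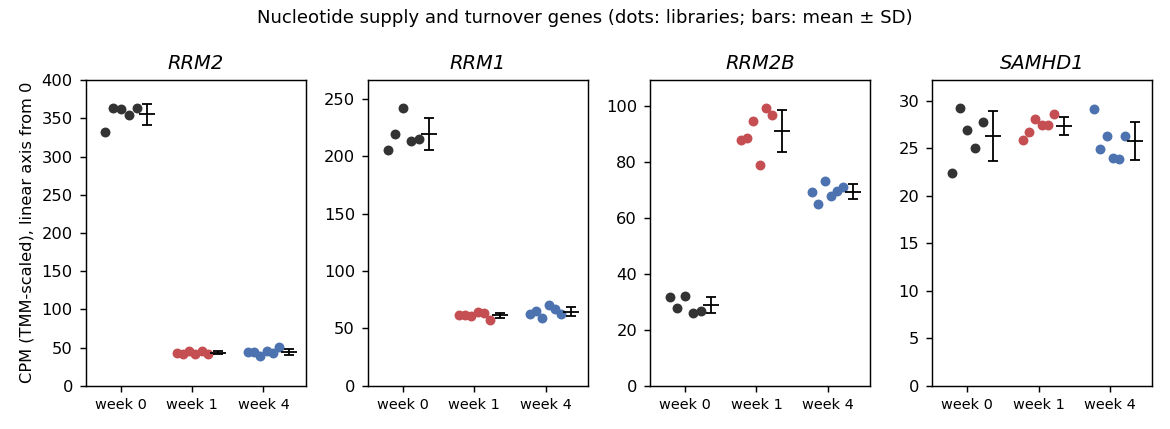
Level of RRM2, RRM1, RRM2B and SAMHD1 in each library, in CPM on linear axes from 0, with the mean ± SD of each week. RRM2 and RRM1 drop at week 1 and stay low at week 4, RRM2B is highest at week 1 (79.0 to 99.5 CPM) and SAMHD1 overlaps between the weeks.

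By week 4 the 39 genes were still low. At week 4, 39 of 39 were called lower than week 0 by edgeR (adjusted p at most 2.1e-10), where 33.7% of all tested genes were, and 39 of 39 were called lower without overlap, where 23.6% of all tested genes were. Falls from week 0 ran from 2.13-fold (POLA1) to 8.03-fold (RRM2), 25 of them over 4-fold and 1 over 8-fold. The median log2 fold change was -2.13, against 0.00 over all tested genes. In terms of mean level, week 4 stood at 12.4% (RRM2) to 47.0% (POLA1) of week 0, with a median of 22.8%, where week 1 stood at 7.93% (PRIM1) to 36.8% (POLA2), with a median of 17.6%.

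Between week 1 and week 4 many of the genes came back by a small amount. By edgeR 29 of 39 were called higher at week 4, where 21.8% of all tested genes were, and 20 of 39 were called higher without overlap, where 14.8% of all tested genes were. None was called lower, where 18.6% of all tested genes were, and none was lower at an unadjusted p under 0.05. In a fit to the week 1 and week 4 libraries alone PCNA was called lower (log2 fold change -0.09, adjusted p = 0.02). The median log2 fold change was 0.37, against 0.01 over all tested genes, and the largest change was 1.87-fold. The summed level went from 536 to 576 CPM at week 1 to 617 to 689 CPM at week 4. MKI67, a marker of cycling cells, was 346 to 467 CPM at week 0, 35.6 to 49.1 at week 1 and 53.7 to 82.6 at week 4.

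The partial return was also counted by role, where some roles hold few genes. Called higher were 6 of 7 polymerase and primase genes, 9 of 11 licensing genes, 6 of 8 firing genes, 4 of 5 clamp and loader genes, 2 of 3 lagging-strand genes and 2 of 5 nucleotide supply genes. Over all tested genes 21.8% were called higher. The median log2 fold changes of the 6 roles, in the same order, were 0.60, 0.37, 0.43, 0.38, 0.14 and 0.11, and the differences between roles were not tested.

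POLA1 rose by 0.77 ± 0.06 on the log2 scale (edgeR adjusted p = 1.3e-09, the lowest of the 39), and POLD3 by 0.60 ± 0.06 (adjusted p = 5.7e-08). The rises of PRIM1, 0.90 ± 0.15, and of POLE2, 0.79 ± 0.18, were larger but less precise, at levels of about 1 to 2 CPM. MCM10 rose by 0.73 ± 0.10, DNA2 by 0.56 ± 0.11 and CDC45 by 0.54 ± 0.09. MCM6 rose by 0.49 ± 0.05, the largest rise among the MCM2-7 subunits, and MCM4 by 0.16 ± 0.05, the smallest.

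The 10 genes not called were ORC6, CDC6, CDC7, GINS4, POLA2, PCNA, LIG1, RRM1, RRM2 and DUT. For RRM2 the log2 fold change was 0.03 ± 0.05, for GINS4 0.04 ± 0.07 and for POLA2 0.04 ± 0.11, and each was below 0 when 1 library was left out (-0.01 and -0.02 without week 4 replicate 6, -0.03 without week 1 replicate 6). CDC6, at 0.18 ± 0.08, had an edgeR adjusted p of 0.085, and it was called without week 4 replicate 3. Of the 29 called genes, FEN1, GMNN and RFC2 were near the threshold, at adjusted p of 0.03, 0.039 and 0.045, and lost their call in 6, 8 and 8 of the 17 fits that left out 1 library. Without week 0 replicates 1 and 4 together, all 3 were called, at edgeR adjusted p of 0.0093, 2.3e-05 and 0.0052. LIG1 was then called as well (adjusted p = 0.046).

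**Figure D4:**
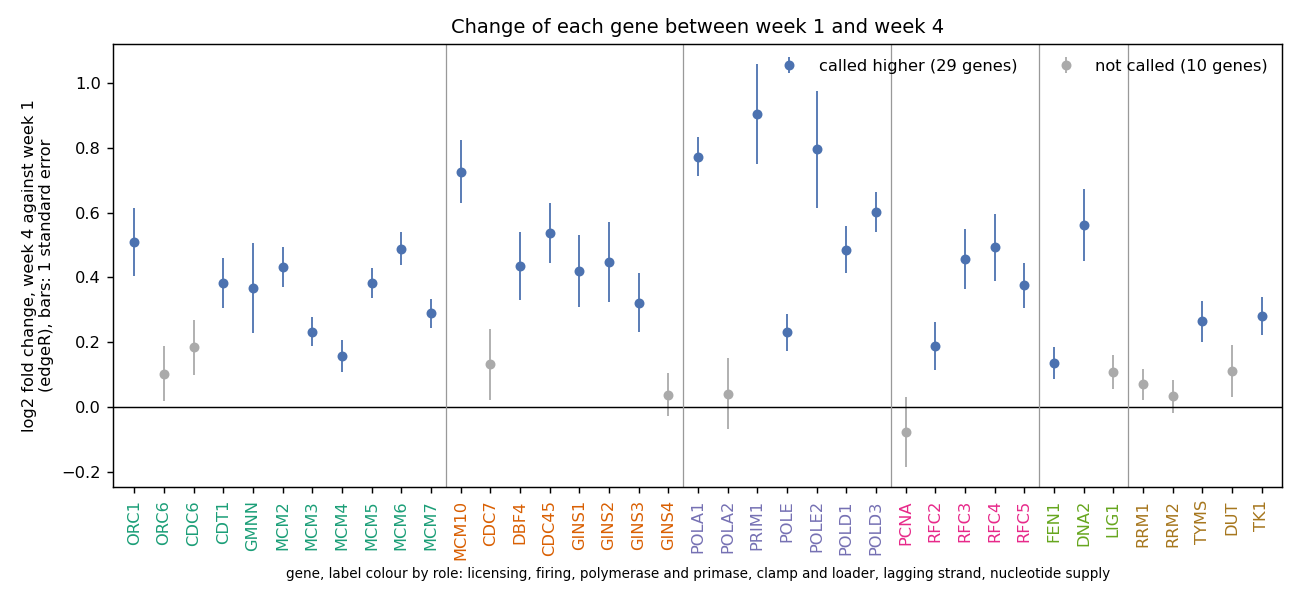
Log2 fold change from week 1 to week 4 of each of the 39 genes, with bars of 1 standard error from edgeR, blue where called higher (29 genes) and grey where not called (10 genes). All points but PCNA (-0.08) lie above 0, and the highest are PRIM1 (0.90), POLE2 (0.79) and POLA1 (0.77).

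Expressed as a share of the week 1 fall, on the linear CPM scale, the return was small. The median over the 39 genes was 4.80%, from -2.69% for PCNA to 26.9% for POLA1. After POLA1 the highest shares were those of POLD3 (20.1%), POLD1 (13.5%), MCM6 (12.7%) and RFC5 (10.1%). The week 1 level enters both the return and the fall, so the share depends on the depth of the fall. PRIM1 and POLE2, whose log2 rises were the largest, had shares of 7.51% and 7.79%. The shares of RRM2 (0.325%), GINS4 (0.822%) and POLA2 (1.75%), whose protein binds that of POLA1, had no stable sign. With 1 library left out they ran from -0.082% to 0.665%, from -0.425% to 1.51% and from -1.39% to 4.41%, lowest without week 4 replicate 6 for RRM2 and GINS4 and without week 1 replicate 6 for POLA2. With 1 library left out the share of POLA1 ran from 25.6% to 27.7%, and the difference between POLA1 and POLA2 was not tested.

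Pairs of genes that act together were compared as log2 ratios within each library, which do not depend on the library's scaling. The 6 pairs were tested with exact two-sided permutation tests adjusted over 18 tests. The smallest p that 5 against 6 libraries gave was 0.0022, or 0.0043 after adjustment. RRM2 relative to RRM1 was 0.58 to 0.76 at week 0, -0.63 to -0.40 at week 1 and -0.65 to -0.31 at week 4. It fell by 1.21 at week 1 and by 1.25 at week 4 (exact permutation adjusted p = 0.0043 for both), and its change of -0.04 between week 1 and week 4 was not called (adjusted p = 0.65). RRM2 relative to RRM2B changed by -4.70 at week 1, by -4.28 at week 4 and by 0.42 between them (exact permutation adjusted p = 0.0043 for each). As a ratio of CPM not corrected for gene length, RRM2 over RRM2B was 12.4 at week 0, 0.476 at week 1 and 0.636 at week 4.

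POLE2 relative to POLE fell by 1.71 and 1.17 at weeks 1 and 4 (exact permutation adjusted p = 0.0043 for both) and rose by 0.54 between them (adjusted p = 0.036). Without week 0 replicates 1 and 4 the falls were -1.34 and -0.81 and were still called (exact permutation adjusted p = 0.019 and 0.031). At week 1 the difference was -2.05 within the libraries whose tables held no gene length and -1.18 within the 4 whose tables held one. The first of these sets holds week 0 replicates 1 and 4, where this ratio was highest. MCM2 relative to MCM7 rose by 0.46 and 0.60 at weeks 1 and 4 (exact permutation adjusted p = 0.0043 for both) and by 0.14 between them (adjusted p = 0.039). CDC6 relative to ORC6 fell by 0.49 and 0.42 (exact permutation adjusted p = 0.016 and 0.032) and changed by 0.07 between week 1 and week 4 (adjusted p = 0.58). For POLE2 over POLE and MCM2 over MCM7 the week 4 against week 1 calls were lost in 7 and 8 of the leave-one-out fits, with adjusted p up to 0.075. Without week 1 replicate 5 or 6 the CDC6 to ORC6 call at week 1 had an adjusted p of 0.052, and without week 0 replicate 5 the call at week 4 had 0.053.

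CDT1 relative to its inhibitor GMNN depended on which untreated libraries were used. The log2 ratio at week 0 was -1.32 in both replicates 1 and 4 and -0.43, -0.29 and -0.23 in replicates 3, 5 and 6. At week 1 it was -0.86 to -0.55 and at week 4 it was -0.77 to -0.43. All treated libraries were above replicates 1 and 4, and 1 of week 4 (replicate 4) was level with replicate 3. Over all libraries the differences from week 0 were 0.05 and 0.06 and were not called (exact permutation adjusted p = 0.85 for both). Without replicates 1 and 4 they were -0.35 and -0.34. Replicates 1 and 4 were the lowest of week 0 on this same ratio, which is part of how they stood apart. A test made after leaving them out would follow from that choice, so no call is drawn from these differences. Within the libraries whose tables held no gene length column the week 1 difference was 0.33, and within the 4 whose tables held one it was -0.34. Replicates 1 and 4 are both in the first of these sets.

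**Figure D5:**
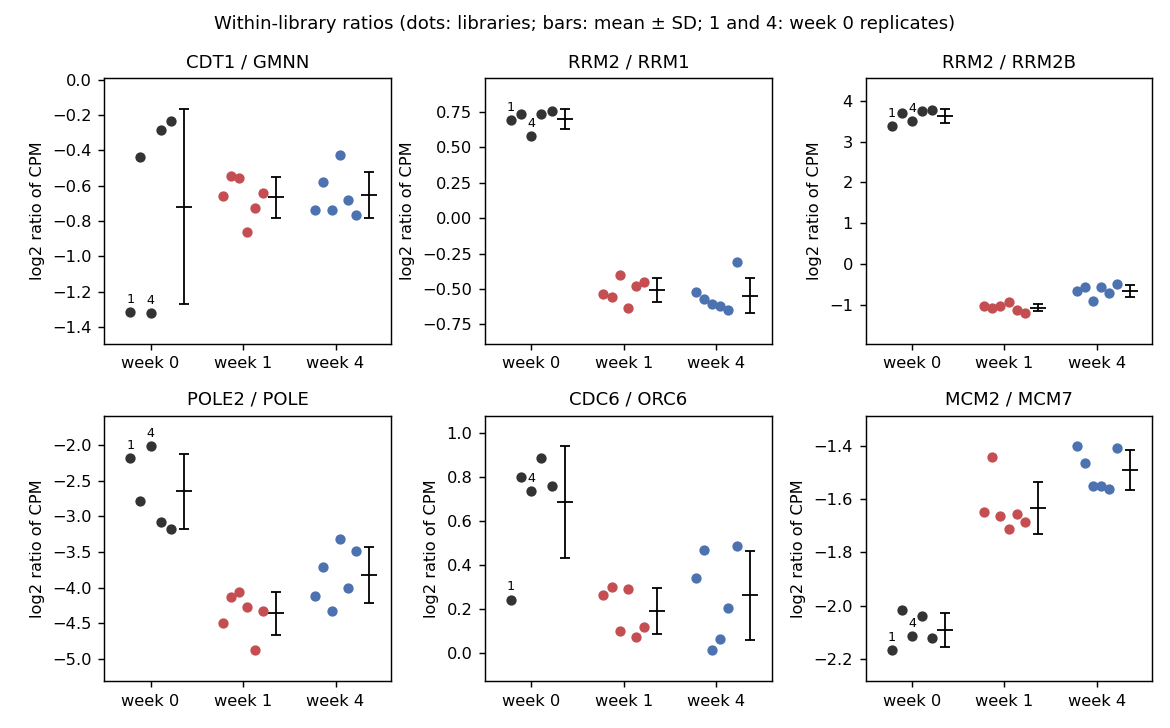
Log2 ratio of CPM within each library for 6 gene pairs, by week, with 1 dot per library, the mean ± SD beside each week, and week 0 replicates 1 and 4 numbered. Replicates 1 and 4 lie at -1.32 for CDT1 over GMNN, below the other week 0 libraries, and highest for POLE2 over POLE. For RRM2 over RRM2B the weeks do not overlap.

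The 2 untreated libraries that stood apart did so over the tested genes at large as well as in the list. Chi-square per gene, a measure of how far the counts of 2 libraries differ, was taken over the tested genes. It was 95.4 to 221 between either of them and replicates 3, 5 and 6, and 12.4 to 24.0 among those replicates. In 18 of the 39 genes both were above replicates 3, 5 and 6, by 1.12 to 1.78 times, most for GMNN, PCNA, GINS2, POLE2 and RFC4. In 10 genes both were below them, at 0.828 to 0.931 times their mean: ORC1, MCM2, MCM3, MCM4, MCM5, MCM7, POLA1, POLE, FEN1 and LIG1. The median deposited gene length was 3234 bases for the first set and 6114 bases for the second. MKI67 was 351 and 346 CPM in replicates 1 and 4 and 426 to 467 in the other untreated libraries. The part of the ribosomal share and of gene length in this split was not tested. Of the treated libraries, week 4 replicate 6 was the highest of its group in 19 of the 39 genes and replicate 3 the lowest in 19. Week 1 replicate 6 was the lowest of its group in 20. None of the gene counts in this paragraph was made over all tested genes, so they are not read as a trait of the 39 genes.

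Genes with related roles were counted in the same way, and differences between the lists were not tested. Of 32 other replication genes, all tested, 29 were called lower and 1 higher at week 1 by edgeR, where 34.0% and 32.9% of all tested genes were, with a median log2 fold change of -1.33. At week 4 against week 0, 30 were lower and 1 higher, where 33.7% and 33.9% of all tested genes were. Between week 1 and week 4, 14 were higher and 2 lower, where 21.8% and 18.6% of all tested genes were. The largest falls were those of PCLAF, a PCNA-binding protein (-2.99 ± 0.19), RNASEH2A, the catalytic subunit of ribonuclease H2 (-2.88 ± 0.54, from 0.296 to 0.039 CPM, a very low level), and CLSPN, the checkpoint mediator claspin (-2.86 ± 0.08). The only gene called higher was POLD4, the smallest polymerase delta subunit, at 6.50 ± 0.36 and 9.28 ± 1.17 CPM (log2 fold change 0.51 ± 0.08).

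Of 29 other genes of nucleotide synthesis and turnover, 21 were called lower and 6 higher at week 1 by edgeR, where 34.0% and 32.9% of all tested genes were, with a median log2 fold change of -0.49. At week 4 against week 0, 23 were lower and 3 higher, where 33.7% and 33.9% of all tested genes were. Between week 1 and week 4, 5 were higher and 8 lower, where 21.8% and 18.6% of all tested genes were, so that these counts lay near the background. Among the genes with the largest falls were SHMT1, which supplies 1-carbon units (-2.12 ± 0.11), and DTYMK, which phosphorylates dTMP (-1.76 ± 0.11). After RRM2B the largest rises were those of the mitochondrial thymidine kinase TK2 (0.70 ± 0.05) and the guanylate kinase GUK1 (0.56 ± 0.06).

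Some of these counts cannot be assigned with certainty, because the counting's strand setting is not given in the sources used here. In the GENCODE version 29 annotation, exons of other genes cover 46.6% of the exon bases of TYMS, all on the opposite strand, 35.1% of POLA2 on its own strand and 23.6% of MCM2 and of GINS4 on the opposite strand. For PRIM1 and RRM2 the shares were 21.6% and 20.2%, mostly and wholly on the same strand. This version may not be the annotation that was counted. Deposited lengths exceeded its exon bases for POLA1 (15547 and 6336) and POLA2 (12006 and 5726). The deposited length was the smaller for POLE (12364 and 16609) and equal for MCM2 (4902). Processed copies listed with a gene's symbol plus P held at most 2.53% as many counts as the gene itself (DBF4).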

How the data were processed

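The authors deposited 1 table per library with raw counts per gene symbol, whole numbers with no normalization. The aligner HISAT2 2.0.5.2 and the read counter featureCounts 1.4.6 are named in the submitters' processing notes, which also list a mouse build although the symbols are human. Deposited coordinates are therefore not used. Annotation, strand setting and treatment of multiply mapped reads were not given in the sources used here. The entry without a gene name (0.221% to 0.289% of counts) was left out, and totals over named genes were 77.2 to 102.8 M. A gene length, used here for levels per kilobase, stood beside the counts of 4 libraries: replicates 5 and 6 of week 0, replicates 1 and 2 of week 1.

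The main test was edgeR 4.0.16 (R 4.3.3), after filterByExpr on the groups (16891 genes), with TMM factors (0.938 to 1.11), and a quasi-likelihood fit with a mean per group over all 17 libraries, with Benjamini-Hochberg adjustment and a threshold of 0.05 on the adjusted p. Each standard error is the log2 fold change over the square root of F. The biological coefficient of variation was 11.7%. Ratios within libraries used counts plus 0.5. The script was tested on simulated data. Libraries within groups differed by more than sampling noise (chi-square per gene of 7.47 or more in 40 pairs).

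Alternatives were other scalings, filters and tools (DESeq2 1.42.0, limma 3.58.1 voom), the replicate block, the file class, and each library left out in turn. The 39 genes and the 2 further lists were chosen with earlier results of these data known. Any of the 39 could be named. Of each further list, the 3 called genes with the largest fall and rise at week 1 were named, with RRM2B and SAMHD1 whatever their result, and 1 gene of that rule is not reported here. Promoters for printing were chosen after their motifs were seen.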

Additional observations from a re-analysis of the deposited data

Results flagged for a closer look

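In 7 of 141 sets of values of 1 week (levels of 41 genes and 6 log2 ratios), 1 library lay far from the nearest of the others by Dixon's criterion, and chance gives about 1 in 20. ORC1 was 3.50 CPM in week 1 replicate 5, where the others were 2.09 to 2.48. CDT1 was 31.6 CPM in week 0 replicate 4 (others 37.8 to 39.8). MCM6 was 31.2 CPM in week 4 replicate 3 (others 33.6 to 34.7). GINS3 was 9.75 CPM in week 0 replicate 6 (others 10.5 to 10.7). The log2 ratio of RRM2 to RRM1 was -0.31 in week 4 replicate 6 (others -0.65 to -0.52). That of CDC6 to ORC6 was 0.24 in week 0 replicate 1 (others 0.74 to 0.89). That of MCM2 to MCM7 was -1.44 in week 1 replicate 2 (others -1.71 to -1.65).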

How the results depend on the processing

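At week 1 against week 0, 39 genes were called lower in all 30 alternatives. At week 4 against week 0 the count was 39 in all but the test against a minimum log2 fold change of 1 (38, without POLA1). The median log2 fold change at week 1 was -2.43 with upper-quartile scaling, -2.28 within the 4 libraries whose tables held gene lengths, -2.35 without week 0 replicates 1 and 4, and -2.54 to -2.40 with 1 library left out. Genes called higher at week 4 against week 1 numbered 26 to 29 with 1 library left out, 25 with limma-voom and 0 against a minimum log2 fold change of 1, a stricter question. Without week 0 replicates 1 and 4 together they numbered 30. All week 4 tables were without gene lengths. With a term for file class (tables with or without gene lengths) 27 genes were called higher, and the median of the 39 was 0.32. GMNN (0.26, edgeR adjusted p = 0.14) and RFC2 (0.16, adjusted p = 0.12) were then not called. With only the groups compared in the fit, 1 gene (PCNA) was called lower. The log2 ratio of CDT1 to GMNN turned to -0.35 and -0.34 at weeks 1 and 4 without week 0 replicates 1 and 4, and with 1 library left out it was -0.097 to 0.17, -0.086 to 0.19 and, between weeks 1 and 4, -0.034 to 0.035. With 1 library left out, CDC6 to ORC6 differed from week 0 by -0.60 to -0.44 and -0.53 to -0.37, POLE2 to POLE between weeks 1 and 4 by 0.43 to 0.64 and MCM2 to MCM7 by 0.13 to 0.18. Between weeks 1 and 4 the log2 fold change of POLA2 was -0.033 (without week 1 replicate 6) to 0.11, that of GINS4 -0.021 (without week 4 replicate 6) to 0.070 and that of RRM2 -0.0086 (without week 4 replicate 6) to 0.068. The cause of these changes was not tested. Same-numbered libraries of different weeks were not seen to be more alike than others (correlations -0.038 to 0.067, and -0.078 to 0.079 for different numbers). Of 17 libraries, 1 was closest to its own number. Whether the numbers mark a shared culture was not tested. With the replicate block 39, 39 and 28 genes were called lower, lower and higher, where FEN1 lost its call. The rises of POLE2 and PRIM1 at week 4 had the largest standard errors of the 39, 0.18 and 0.15.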
